A study of Mus musculus with 11 samples.

Results

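The 10 genes described here are grouped as centriole and basal body genes. They are Cep131, called Azi1 in the study, Cetn1, Cetn2, Cetn3, Cep164, Cep290, Cep135, Poc1a, Poc1b and Hook1. Some of them encode proteins of nearby structures rather than of the centriole itself, as given below. The genes were chosen by name, by their symbols in the GENCODE M21 annotation. All 10 were found among the 23074 genes of the deposited count table, and all 10 were among the 15745 genes with enough reads to be tested. Whole testes were compared at postnatal day 21 (P21) between 5 wild type (Rfx2+/+) mice, numbered 1 to 5, and 6 Rfx2-/- mice, numbered 6 to 11, all labelled as a mixed background of C57BL/6, 129/Sv and FVB/N. In Rfx2-/- mice, exon 7 of Rfx2, which encodes part of the DNA-binding domain of the transcription factor RFX2, is deleted in every cell, through a universally expressed Cre. Littermates were used where possible, and the labels give no batch.

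The centriole is a short barrel of microtubule triplets. A cartwheel templates it, wall proteins stabilise it, and appendages at its distal end let it dock to a membrane and become the basal body of a cilium. Round spermatids use their centrioles in this way to grow the axoneme of the sperm tail, and they later shape the nucleus with the manchette, a skirt of microtubules. RFX factors bind X-boxes, imperfect inverted repeats that are common in promoters of ciliary genes.

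Each mouse gave between 22232097 and 29769483 counts, and values are given as CPM, counts normalised to a TMM-scaled library. Genes are called higher or lower when the quasi-likelihood test of edgeR, with Benjamini-Hochberg adjustment over all tested genes, gives an adjusted p of at most 0.01. Marker RNA of germ cells and of Sertoli cells varied between the testes, and cell numbers were not measured. The summed CPM of 6 markers of pachytene spermatocytes were 2277 and 2162 in wild type mice 3 and 5, from 4388 to 5064 in wild type mice 1, 2 and 4, and from 4526 to 5846 in Rfx2-/- mice. Markers of round spermatids summed to 14.9 and 8.73 CPM in wild type mice 3 and 5, to between 24.0 and 402 CPM in mice 1, 2 and 4, and to between 28.9 and 587 CPM in Rfx2-/- mice. Sertoli cell markers went the other way, with 715 and 787 CPM in mice 3 and 5, 474 to 612 CPM in mice 1, 2 and 4, and 445 to 549 CPM in Rfx2-/- mice. None of the 10 marker sums reached an adjusted p of 0.05 between genotypes, and the smallest adjusted value was 0.0714 in two-sided exact permutation tests, for pachytene spermatocytes, Sertoli cells, endothelium and the total count alike. Rfx2 itself had 326 ± 118 CPM (SD, n = 5) in wild type against 304 ± 14.6 CPM (SD, n = 6) over all its exons, a count that cannot show the loss of exon 7. Its log2 fold change was -0.10 (adjusted p = 0.714) and -0.41 without wild type mice 3 and 5 (adjusted p = 0.0122), both from edgeR. With the pachytene marker sum as a covariate it was -0.54 (adjusted p = 0.000116 from edgeR), so that Rfx2 was called lower. That fit called 4.47% of all tested genes lower, against 1.94% without a covariate.

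Cep131 was the only member called lower, and no member was called higher. Of all tested genes, 1.94% were called lower and 0.73% higher. With a change of more than 2-fold required as well, Cep131 still passed, beside 1.04% of all genes called lower and 0.216% called higher. For 2 members, Cep135 and Hook1, the adjusted p lay between 0.01 and 0.05, both with higher means in Rfx2-/- testis. With the threshold moved to 0.05, 6.15% of all genes were higher and 8.78% lower. The fitted log2 fold changes of the members had a median of 0.29, against -0.05 over all tested genes, and 8 of the 10 were above 0, against 45.2% of all tested genes. With the round spermatid marker sum as a covariate, a fit planned beforehand, the median was 0.19, with 7 of the 10 above 0. All tested genes had a median of -0.03 in that fit, with 45.1% above 0. In 2 fits added after seeing the data, the members' median was 0.07 without wild type mice 3 and 5, with 7 of the 10 above 0. All tested genes had -0.01 there, with 47.5% above 0. With the pachytene marker sum as a covariate the members' median was -0.10, with 4 of the 10 above 0. All tested genes had -0.02 in that fit, with 46.4% above 0. The genotypes did not overlap for Cep131, lower in every Rfx2-/- mouse, and for Hook1, higher in every Rfx2-/- mouse. Such separation was found for 5.2% of all genes in the lower and 6.5% in the higher direction.

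Cep131 encodes a protein of the centriolar satellites, granules that move cargo to the centriole, and it is known to be needed for the mouse sperm flagellum. The gene (ENSMUSG00000039781) spans bases 120064430 to 120086827 of chromosome 11 (GRCm38, minus strand), with up to 26 exons in a transcript. Its promoter is shown because it is the only member with a called difference. The promoter of Cep164 is shown beside it because both hold the same 8 letters, GTTGCTAG, given in capitals. Both windows run from 250 bases before to 30 bases after the start site of the RefSeq gene on GRCm38.p6, on the minus strand, at chr11:120086798-120087077 for Cep131 and chr9:45828634-45828913 for Cep164.

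Cep131: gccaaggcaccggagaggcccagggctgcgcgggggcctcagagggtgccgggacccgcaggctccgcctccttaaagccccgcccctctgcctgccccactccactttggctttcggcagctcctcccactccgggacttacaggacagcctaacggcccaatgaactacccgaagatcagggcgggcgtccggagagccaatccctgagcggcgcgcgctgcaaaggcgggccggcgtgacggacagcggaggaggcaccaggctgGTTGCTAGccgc

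Cep164: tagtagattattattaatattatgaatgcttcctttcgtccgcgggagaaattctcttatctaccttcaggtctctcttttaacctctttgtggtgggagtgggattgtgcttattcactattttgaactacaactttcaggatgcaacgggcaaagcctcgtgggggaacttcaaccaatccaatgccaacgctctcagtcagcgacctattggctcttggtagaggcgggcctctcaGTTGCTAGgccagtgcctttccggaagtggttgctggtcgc

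The letters GTTGCTAG begin at base 19 after the start site in Cep131 and at base -11 before it in Cep164, in both on the strand of the gene. These letters and the 3 other patterns searched were picked after the members' promoters had been read, so a match is a description only. On either strand, 1.32% of 32851 RefSeq promoter windows of the same kind, each with 50 bases after the start site, held them. The X-box half-site GTTGCC was found in 12.5% of all windows and in 2 of the 9 members with a window, Cetn2 and Cep164, and it was not found in the window of Cep131. In Cep164 it lies on the opposite strand from base 36 after the start site, beyond the stretch printed here. A looser X-box form, GTTGCNNNNNNAAC, was found in 1.03% of all windows and in Cetn2 among the members, where it overlaps the half-site. Another, GTNNCCNNNGNAAC, was found in 2.17% of all windows and in none of the 9. The letters GTTGCTAG open with GTTGC, as the half-site and the first looser form do. X-box forms with other letters or another spacing were not searched, so whether the window of Cep131 holds one was not tested.

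In wild type mice 1 to 5, Cep131 had 117, 94.9, 55.9, 95.4 and 59.5 CPM, from 1893 to 3323 reads. The lowest Rfx2-/- mouse had 25.3 CPM, the median was 27.0 and the highest 29.1 CPM, from 592 to 705 reads. The highest Rfx2-/- mouse was 26.8 CPM below the lowest wild type mouse. Wild type mice 3 and 5, with the fewest pachytene markers, were the lowest of their group, while the 6 Rfx2-/- mice stood close together. The means were 84.5 ± 26.1 CPM (SD, n = 5) and 27.2 ± 1.59 CPM (SD, n = 6), so that Rfx2-/- testis held 32.1% of the wild type mean. Cep131 thus fell 3.11-fold (log2 fold change -1.64 ± 0.18 SE, adjusted p = 0.000321, edgeR). In a whole testis, fewer cells of a type and less RNA per cell cannot be told apart. The log2 fold change was -1.74 with the round spermatid marker sum as a covariate. It was -1.91 without wild type mice 3 and 5 and -2.001 with the pachytene marker sum as a covariate, both tried after seeing the data. The part of germ cell content in this difference was not tested.

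**Figure D1:**
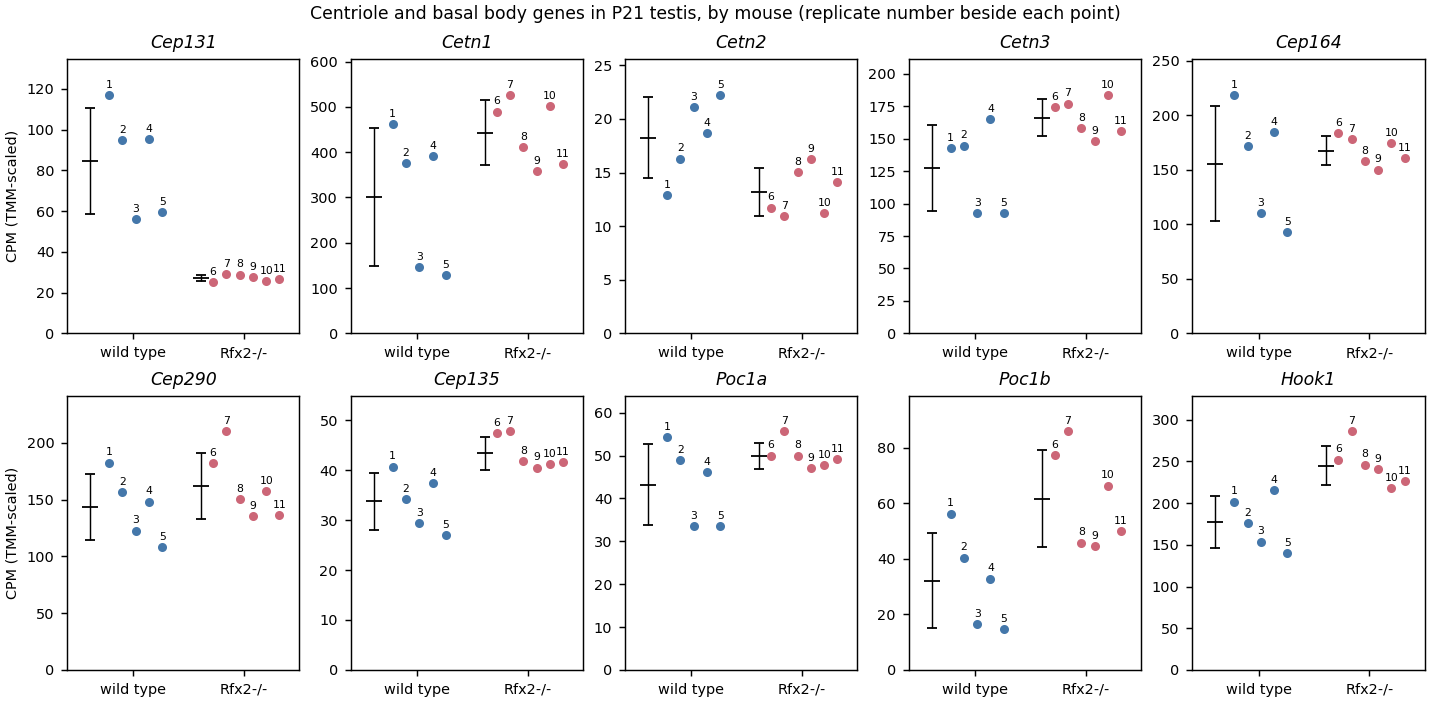
CPM of each member (linear axes from 0) in each of 5 wild type (blue) and 6 Rfx2-/- (red) mice, with the replicate number above each point and the mean ± SD as a bar to the left. The 6 Rfx2-/- points of Cep131 sit between 25.3 and 29.1, below all wild type points, and wild type mice 3 and 5 are the lowest of their group for every member except Cetn2, where they are the highest.

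Wild type mice 3 and 5 were the lowest of their group for 9 of the 10 members, a pattern that 36.1% of all tested genes shared. For Cetn2 they were the highest, as for 31.1% of all tested genes. Wild type mouse 1, which had the most round spermatid and pachytene markers of its group, had the highest wild type level of 7 members, and of 35.4% of all tested genes. Within Rfx2-/- testis, mouse 7 was the highest for 7 members and mouse 9 the lowest for 7, against 29.8% and 22.3% of all tested genes. Mouse 7 had the largest pachytene marker sum of its group, 5846 CPM, and mouse 9 the smallest, 4526 CPM. The coefficient of variation was larger in wild type for all 10 members, and for 81.8% of all tested genes. The part of germ cell content in the members' differences was not tested, since the marker sums are RNA levels and not cell counts.

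**Figure D2:**
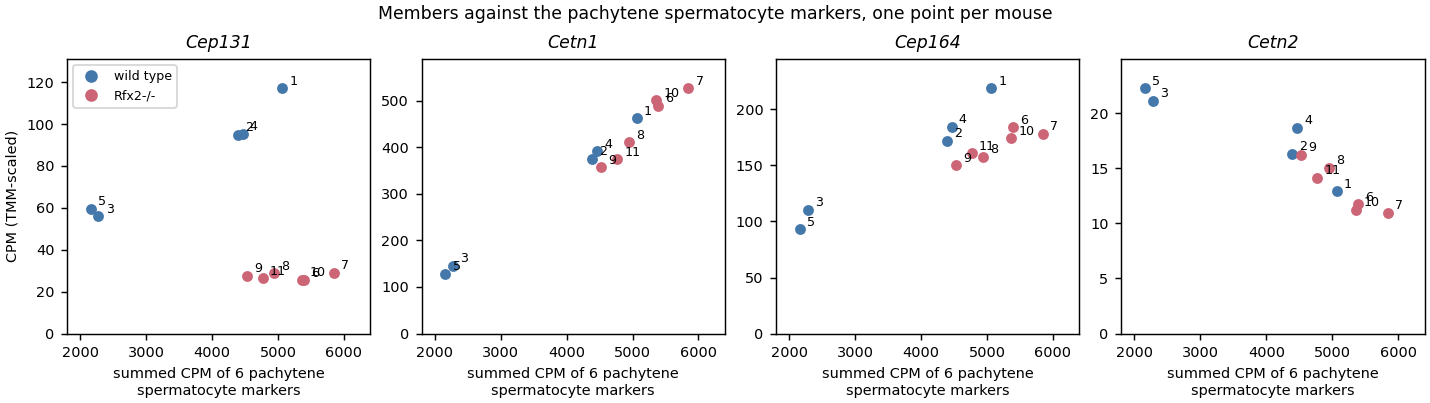
CPM of Cep131, Cetn1, Cep164 and Cetn2 in each mouse (vertical, linear from 0) against the summed CPM of 6 pachytene spermatocyte markers (horizontal, not from 0), with wild type in blue, Rfx2-/- in red and replicate numbers beside the points. Wild type mice 3 and 5 lie at the left, at 2277 and 2162, and for Cep131 the Rfx2-/- mice lie between 25.3 and 29.1 CPM at marker sums of 4526 to 5846.

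The centrins are small calcium-binding proteins of the centriole lumen. Cetn1, the form made in male germ cells, had 463, 375, 146, 392 and 128 CPM in wild type mice 1 to 5. In Rfx2-/- mice it ranged from 357 to 527 CPM with a median of 450.3. The low values were those of wild type mice 3 and 5, and the other wild type mice lay within the Rfx2-/- range. The means were 301 ± 153 CPM (SD, n = 5) and 443 ± 71.5 CPM (SD, n = 6), which did not pass the test (log2 fold change 0.56 ± 0.32 SE, adjusted p = 0.1995 from edgeR). Without mice 3 and 5 the log2 fold change was 0.12, and with the pachytene marker sum as a covariate it was -0.12, which turned its direction.

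Cetn2, a widely expressed centrin that also serves in DNA repair, is shown with its promoter because this is the member window that holds both the GTTGCC half-site, in capitals, and the looser X-box form. The window lies on the minus strand at chrX:72918315-72918594 of GRCm38.p6, from RefSeq, and the half-site begins at base -8 before the start site.

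Cetn2: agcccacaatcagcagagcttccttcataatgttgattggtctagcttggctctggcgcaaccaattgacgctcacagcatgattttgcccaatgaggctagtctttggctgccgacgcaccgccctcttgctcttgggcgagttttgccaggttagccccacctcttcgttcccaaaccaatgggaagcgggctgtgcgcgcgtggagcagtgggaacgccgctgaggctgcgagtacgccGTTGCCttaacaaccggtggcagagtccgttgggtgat

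Cetn2 had 12.9, 16.3, 21.1, 18.7 and 22.2 CPM in wild type mice 1 to 5. Values in Rfx2-/- mice ran from 10.9 to 16.2 CPM with a median of 12.9. Here the order of the mice was turned round, with mice 3 and 5 the highest, and the genotypes overlapped through wild type mouse 1. The means were 18.3 ± 3.76 CPM (SD, n = 5) and 13.2 ± 2.23 CPM (SD, n = 6), a log2 fold change of -0.47 with standard error 0.16 and an adjusted p of 0.0628 from edgeR, which missed the threshold. With the pachytene marker sum as a covariate the log2 fold change was -0.15.

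Cetn3, the third centrin, had 143, 145, 92.8, 165 and 92.6 CPM in wild type mice 1 to 5. The Rfx2-/- mice ranged from 148 to 184 CPM with a median of 166. Only wild type mouse 4 reached the Rfx2-/- range. The means of 128 ± 33.0 CPM (SD, n = 5) and 166 ± 14.1 CPM (SD, n = 6) gave a log2 fold change of 0.38, standard error 0.15 and adjusted p = 0.0906 from edgeR. Without mice 3 and 5 the log2 fold change was 0.15, and with the pachytene marker sum as a covariate it was 0.044. Per exon length, as RPKM (CPM per kilobase), Cetn1 made up 66.3% to 84.9% of the 3 centrins in wild type and 80.3% to 84.4% in Rfx2-/- mice. The share of Cetn2 was 8.45% and 9.69% in wild type mice 3 and 5, 1.99% to 3.20% in mice 1, 2 and 4, and 1.47% to 3.06% in Rfx2-/- mice. An antisense gene overlaps 9.75% of the Cetn3 exons, and whether the counting used strand is not given in the sources used here.

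Cep164 builds the distal appendages by which the centriole docks to a membrane. It had 219, 172, 110, 185 and 93.0 CPM in wild type mice 1 to 5. Levels in Rfx2-/- mice ran from 150.2 to 184 CPM with a median of 168. The Rfx2-/- range thus lay above wild type mice 3 and 5 and below mice 1 and 4. The means of 156 ± 52.6 CPM (SD, n = 5) and 168 ± 13.2 CPM (SD, n = 6) did not pass the test (log2 fold change 0.11 ± 0.20 SE, adjusted p = 0.685 from edgeR). The direction depended on the fit. Without mice 3 and 5 the log2 fold change was -0.19. With the pachytene marker sum as a covariate it was -0.32, with an adjusted p of 0.00294 from edgeR. Cep164 was called lower in that fit alone, which called 4.47% of all tested genes lower, against 1.94% in the main fit.

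Cep290, a gatekeeper of the transition zone just above the basal body, had 183, 157, 123, 148 and 108 CPM in wild type mice 1 to 5. The level in Rfx2-/- mice lay between 135 and 210.1 CPM with a median of 154. The groups overlapped widely. The means were 144 ± 29.1 CPM (SD, n = 5) and 162 ± 29.1 CPM (SD, n = 6), with a log2 fold change of 0.17, standard error 0.15 and adjusted p = 0.392 from edgeR. A counted gene on the other strand, 4930430F08Rik, overlaps 8.87% of the Cep290 exons, and the authors left out reads on exons of more than 1 gene.

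Cep135 links the cartwheel to the triplets at the proximal end. It had 40.7, 34.2, 29.3, 37.3 and 27.1 CPM in wild type mice 1 to 5. In Rfx2-/- mice it ranged from 40.5 to 47.7 CPM with a median of 41.7. Only wild type mouse 1 reached the Rfx2-/- range, by less than 1 CPM. The means of 33.7 ± 5.61 CPM (SD, n = 5) and 43.3 ± 3.30 CPM (SD, n = 6) gave a log2 fold change of 0.36, standard error 0.11 and adjusted p = 0.0464 from edgeR, above the threshold of 0.01. DESeq2 called it higher (adjusted p = 0.00735), but DESeq2 called 1146 of all genes higher, where edgeR called 115. Without wild type mice 3 and 5 the log2 fold change was 0.22 (adjusted p = 0.122 from edgeR).

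Poc1a and Poc1b encode related repeat proteins that stabilise the centriole wall. Poc1a had 54.3, 48.9, 33.5, 46.1 and 33.5 CPM in wild type mice 1 to 5, and in Rfx2-/- mice it ranged from 47.1 to 55.6 CPM with a median of 49.6. Poc1b had 56.3, 40.4, 16.6, 32.9 and 14.8 CPM in wild type mice 1 to 5, and in Rfx2-/- mice it ranged from 44.7 to 85.9 CPM with a median of 58.3. Both genes had their low values in wild type mice 3 and 5, and in both at least wild type mouse 1 lay within the Rfx2-/- range. For Poc1a, the means of 43.2 ± 9.40 CPM (SD, n = 5) and 49.96 ± 3.01 CPM (SD, n = 6) gave a log2 fold change of 0.21 and adjusted p = 0.224 from edgeR. For Poc1b, the means were 32.2 ± 17.3 CPM (SD, n = 5) and 61.8 ± 17.5 CPM (SD, n = 6), and its log2 fold change of 0.94, with standard error 0.35, was the largest above 0 among the members, with adjusted p = 0.0748 from edgeR. Poc1b was also the member that varied most between mice, with a coefficient of variation of 53.6% in wild type and 28.3% in Rfx2-/- testis. Without mice 3 and 5 its log2 fold change was 0.52, and with the pachytene marker sum as a covariate it was 0.23. A long noncoding RNA gene on the other strand overlaps 23.9% of the Poc1b exons.

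Hook1 links cargo to microtubules and is known for its place on the manchette, where its loss gives abnormal sperm heads. It had 202, 176, 154, 215 and 140.2 CPM in wild type mice 1 to 5. Its Rfx2-/- values ran from 218 to 286 CPM with a median of 243. Every Rfx2-/- mouse was above every wild type mouse, although mouse 10 exceeded wild type mouse 4 by little. The means of 178 ± 31.6 CPM (SD, n = 5) and 245 ± 23.7 CPM (SD, n = 6) gave a log2 fold change of 0.46, standard error 0.12 and adjusted p = 0.0296 from edgeR, which missed the threshold of 0.01. DESeq2 called Hook1 higher (adjusted p = 0.00127), as it did 1146 of all genes, against 115 by edgeR. With the pachytene marker sum as a covariate in edgeR, the log2 fold change of Hook1 was 0.24 (adjusted p = 0.0956). A noncoding gene on the other strand overlaps 5.05% of the Hook1 exons.

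**Figure D3:**
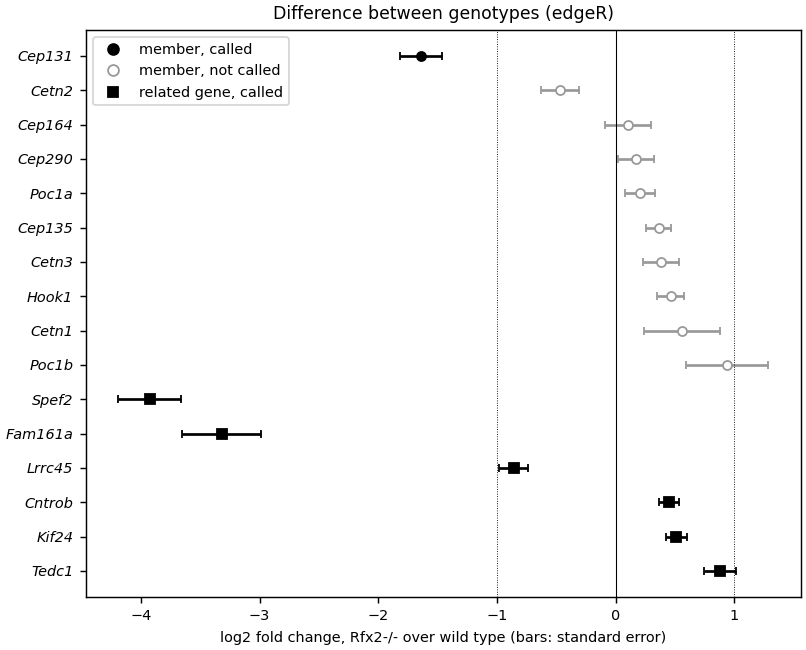
Fitted log2 fold change of Rfx2-/- over wild type from edgeR (horizontal, bars show the standard error) for the 10 members (circles) and the 6 related genes that were called (squares), filled where called, with dotted lines at 2-fold. Cep131 stands at -1.64, and the other members lie between -0.47 and 0.94.

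Levels can be compared between genes only per exon length. In wild type, Cetn1 led with 217 ± 111 RPKM (SD, n = 5), followed by Cetn3 with 46.1, Hook1 with 28.3, Cep131 with 23.6, Cep164 with 20.2, Poc1a with 17.1, Cep290 with 16.4, Cetn2 with 11.1, Poc1b with 9.16 and Cep135 with 6.09 RPKM. Cetn1 and Cetn3 were the only neighbours in this order whose ranges over the 5 mice did not overlap. Cep131 moved from place 4 in wild type, at 23.6 ± 7.29 RPKM (SD, n = 5), to place 10 in Rfx2-/- testis, at 7.58 ± 0.444 RPKM (SD, n = 6). Cep135 was next to it there, at 7.83 ± 0.595 RPKM (SD, n = 6).

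**Figure D4:**
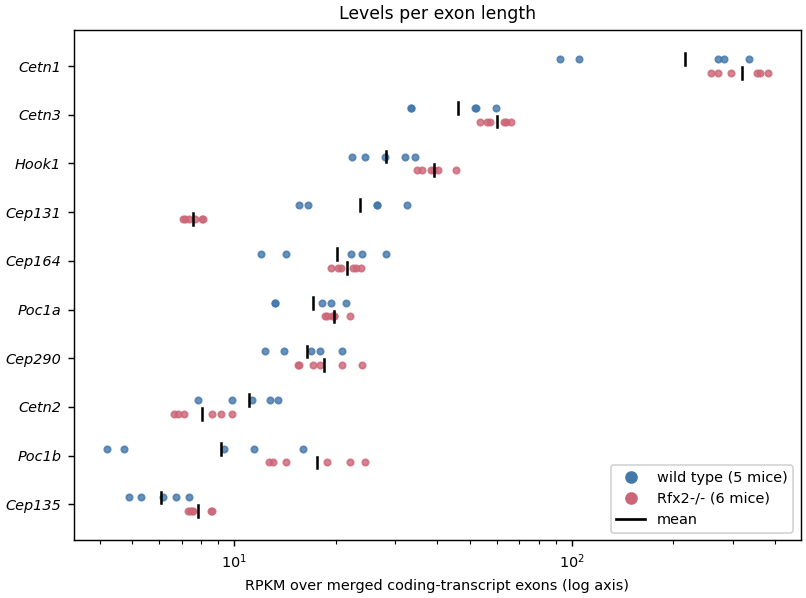
RPKM of the members over merged coding exons (horizontal, log axis) in each wild type (blue) and Rfx2-/- (red) mouse, with the mean as a black line and genes in the order of their wild type means. Cetn1 is highest in both genotypes, and Cep131 drops from 23.6 to 7.58 RPKM, level with Cep135.

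A wider list of 82 genes of the centriole, its appendages, the pericentriolar material, the manchette and the head-tail coupling of spermatids was measured for context, and all 82 were tested. Of these, 3 were called lower, 3 were called higher and 76 were not called, and the median of their log2 fold changes was 0.24. The called shares were thus 3.66% in each direction, beside 1.94% lower and 0.73% higher over all genes. At adjusted p values between 0.01 and 0.05, a further 12 were higher and 3 lower, which made 15 higher and 6 lower at 0.05, where all genes had 6.15% higher and 8.78% lower. Without wild type mice 3 and 5, 4 genes were called lower and 4 higher, 4.88% each, beside 2.72% lower and 1.06% higher over all genes in that fit.

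Spef2, which serves the manchette and the central pair of the sperm axoneme, had 64.9, 48.4, 28.9, 53.7 and 23.6 CPM in wild type mice 1 to 5 and from 2.22 to 3.30 CPM in Rfx2-/- mice. Fam161a, which encodes a microtubule-binding protein of the inner centriole wall, had 57.6, 39.9, 16.2, 29.8 and 15.2 CPM in wild type and from 2.89 to 3.87 CPM in Rfx2-/- mice. Lrrc45, a component of the distal appendages and of the fibres that link centrioles, had 21.4, 16.9, 22.5, 16.1 and 19.2 CPM in wild type and from 8.91 to 12.6 CPM in Rfx2-/- mice. None of these 3 genes overlapped between genotypes, a description only, since they were named for being called on these same values. Of the 82 related genes, 3 were lower without overlap, beside 5.2% of all genes. Their log2 fold changes were -3.93 for Spef2 (adjusted p = 1.5e-05), -3.32 for Fam161a (adjusted p = 0.000203) and -0.86 for Lrrc45 (adjusted p = 0.0017), all from edgeR. Spef2 and Fam161a had their 2 lowest wild type values in mice 3 and 5, as Cep131 did, while Lrrc45 was highest in mouse 3.

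The 3 genes called higher changed less. Tedc1, a partner of the delta and epsilon tubulins needed for the triplets, had 88.0, 76.7, 58.2, 81.0 and 49.6 CPM in wild type mice 1 to 5. It had from 124 to 139.9 CPM in Rfx2-/- mice (log2 fold change 0.88 ± 0.13 SE, adjusted p = 0.00273 from edgeR). Kif24, a kinesin that restrains cilium growth at the mother centriole, had from 54.8 to 78.4 CPM in wild type and from 89.8 to 108 CPM in Rfx2-/- mice (log2 fold change 0.51, adjusted p = 0.00644 from edgeR). Cntrob, a daughter centriole protein, had from 59.3 to 83.9 CPM in wild type and from 96.8 to 106 CPM in Rfx2-/- mice (log2 fold change 0.45, adjusted p = 0.00885 from edgeR). In all 3 genes every Rfx2-/- mouse was above every wild type mouse, again a description of genes named for being called. Of the 82 related genes, 15 were higher without overlap, beside 6.5% of all genes. The calls of Kif24 and Cntrob were lost when single mice were left out, in 8 and 9 of 11 fits.

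**Figure D5:**
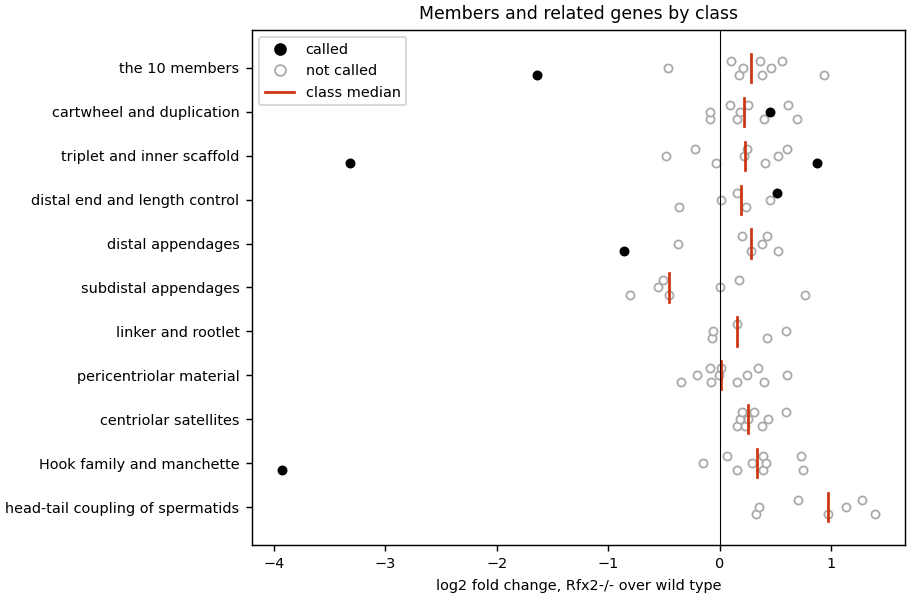
Fitted log2 fold change of Rfx2-/- over wild type (horizontal) for the 10 members and for the 82 related genes in 10 classes (rows), filled where called, with the class median in red. The called genes below 0 are Cep131, Spef2, Fam161a and Lrrc45, and the class medians run from -0.45 for subdistal appendages to 0.98 for head-tail coupling.

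By class, none of the 7 genes of subdistal appendages, 5 of linker and rootlet, 11 of the pericentriolar material, 9 of centriolar satellites and 7 of head-tail coupling were called. Over all genes, 1.94% were called lower and 0.73% higher, so the lack of a call in so few genes says little about a class. At a threshold of 0.05, 3 satellite genes, 2 of linker and rootlet and 2 of the pericentriolar material were higher. Subdistal appendages had 1 gene higher and 1 lower, and head-tail coupling had 0. Over all genes, 6.15% were higher and 8.78% lower at that threshold. Head-tail coupling, whose genes build the joint of sperm head and tail late in the spermatid, had the highest class median, 0.98, with log2 fold changes from 0.33 to 1.39. Markers of round spermatids had a median of 0.98 as well, with none of 8 called. Those of elongating spermatids went the other way, with a median of -0.54, all 4 below 0 and none called. Whether the content of spermatids played a part in the class median was not tested. The 9 other satellite genes had log2 fold changes from 0.16 to 0.60, while that of Cep131 was -1.64.

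The tested genes with a pattern over the 11 mice most like that of Cep131, by the root mean square difference of centred log2 CPM, were Rab27a at 0.110, the gene ENSMUSG00000070357, for which the tables used here hold no symbol, at 0.117, and Esrra at 0.122. The median over all tested genes was 0.862. Rab27a, a GTPase of secretory vesicles, averaged 26.4 ± 7.50 CPM (SD, n = 5) and 9.36 ± 0.556 CPM (SD, n = 6) in the same order of genotypes. ENSMUSG00000070357 had 55.3 ± 19.6 and 16.3 ± 1.25 CPM, and Esrra, a nuclear receptor of energy metabolism, had 35.9 ± 9.26 and 11.7 ± 1.17 CPM. All 3 had their 2 lowest wild type values in mice 3 and 5 and were called lower. They are given as a description, since genes were ranked by these same values.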

How the data were processed

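Decapsulated testes of 5 wild type and 6 Rfx2-/- mice at P21 were sequenced from Illumina TruSeq libraries. The submitters' processing notes name CASAVA 1.8.2, STAR 2.4 and featureCounts 1.4.6. The authors counted reads with a single position on the merged exons of protein coding isoforms on GRCm38 and deposited raw counts, without normalization. Of 23074 gene identifiers, 781 were not found in GENCODE M21. Total counts lay between 22232097 and 29769483, and 3 counts, taken as the floor, were 0.0851 to 0.139 CPM, a limit for counting error alone.

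Genotypes were compared by edgeR 4.0.16 in R 4.3.3 (filterByExpr, TMM, glmQLFit, glmQLFTest) over all genes, without covariates, with Benjamini-Hochberg adjustment. DESeq2 1.42.0 and limma 3.58.1 voom were alternatives, beside other scalings, filters, priors, a threshold of 0.05, a round spermatid marker covariate and each mouse left out. A pachytene marker covariate and the joint removal of wild type mice 3 and 5 were added after seeing the data. RPKM are CPM per kilobase of merged coding exons. Marker sums were compared by two-sided exact permutation tests, with a smallest possible p of 0.00216 and adjustment over 11 comparisons. The tests were tried on simulated counts. The members and all gene lists were chosen with earlier results of these data known, so no p was adjusted over a list. The genes named are all members, Rfx2, in each class the called genes (at most 3, by size of change), and the 3 genes most like each called member. Promoters came from RefSeq (GRCm38.p6), where 9 of 10 members had a window. Tables and plots used matplotlib 3.10.9, SciPy 1.17.1 and pandas 2.3.3 under Python 3.11.15.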

Additional observations from a re-analysis of the deposited data

Results flagged for a closer look

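In 62 groups of mice examined, of which chance would mark about 1 in 20, 7 held a mouse far from the others of its genotype by Dixon's ratio. Among the members, Poc1a was at 55.6 CPM in Rfx2-/- mouse 7, against 47.1 to 50.003 CPM in the other 5. Fam161a was at 3.87 CPM in Rfx2-/- mouse 10, against 2.89 to 3.13. Rab27a was at 8.31 CPM in Rfx2-/- mouse 11, against 9.41 to 9.99, and Esrra was at 13.997 CPM in Rfx2-/- mouse 9, against 10.8 to 11.8. The summed round spermatid markers reached 402 CPM in wild type mouse 1, against 8.73 to 121 in the other 4. The summed markers of elongating spermatids reached 137 CPM in wild type mouse 1, against 0.817 to 12.5, and 96.6 CPM in Rfx2-/- mouse 7, against 2.80 to 17.5.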

How the results depend on the processing

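Cep131 was called lower in all 22 alternative fits, with log2 fold changes between -2.001 and -1.49 and a largest adjusted p of 0.0017 from edgeR, when a mouse was left out. The cause of each change below was not tested. The count of members called lower was 2 with the pachytene marker covariate, through Cep164, and the count called higher was 2 with DESeq2 and 2 with a threshold of 0.05, through Cep135 and Hook1. Directions changed for Cetn1 (-0.12), Cep290 (-0.13), Poc1a (-0.073) and Cep164 (-0.32) with the pachytene marker covariate. That of Cep164 also changed with total counts as library sizes (-0.025, a setting that moved the median of all genes to -0.22), with voom (-0.028), with the round spermatid covariate (-0.039), without wild type mice 3 and 5 (-0.19) and without wild type mouse 5. Leaving out single mice gave -0.020 to 0.26 for Cep164 and -0.23 to 0.071 for Rfx2, which turned without wild type mouse 1 and was called lower only with the pachytene covariate (-0.54).

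Of the related genes, 5 were called lower with DESeq2, 6 with a threshold of 0.05 and 6 with the pachytene covariate, while 16, 15 and 3 were called higher, and voom called 6 higher. Leaving out single mice gave 1 to 4 related genes called higher. Over all genes, 305 were called lower and 115 higher. The counts were 911 and 1146 with DESeq2, 682 and 367 with voom, 1382 and 968 at 0.05, 663 and 300 with the round spermatid covariate, 704 and 187 with the pachytene covariate, and 184 to 393 lower and 45 to 192 higher when single mice were left out.

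Leaving out single mice, the differences of the summed markers (Rfx2-/- minus wild type) ran from -20.9 to 83.4 CPM for early meiotic spermatocytes, 1091 to 1817 CPM for pachytene spermatocytes, 9.97 (without Rfx2-/- mouse 7) to 159 CPM (without wild type mouse 1) for round spermatids, -105 to -50.0 CPM for spermatogonia, -94.1 to -47.2 CPM for Leydig cells, -23.8 to 17.6 CPM for elongating spermatids, -174 to -95.7 CPM for Sertoli cells and -45.8 to 15.3 CPM for peritubular myoid cells. Without wild type mouse 1, those of pachytene spermatocytes (1817 CPM) and Sertoli cells (-174 CPM) reached an adjusted permutation p of 0.0262. No paired analysis was made, because the labels used here do not say which mice were littermates. Every member was above the floor of 3 counts in every mouse.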
